A study of Homo sapiens and Mus musculus with 54 samples.

Results

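The subject is 10 genes of the human hypoxia response, taken by name: HIF1A, EPAS1, EGLN3, VEGFA, ADM, SLC2A1, CA9, BNIP3, NDRG1 and ANKRD37. They are 10 of the 19974 protein-coding genes of the RefSeq annotation of GRCh38.p14 on chromosomes 1 to 22 and X. Each gene was read for the rows of 4 deposited HepG2 peak lists that lie within 50 kb of its gene body in hg38, and the rule that names them uses no measured value, although they were picked with earlier results of these data known. HepG2 is a single human liver cancer cell line, and all libraries used here are from day 12. ChIP of AhR and ChIP of C/EBPα were made from 2 control (Cont) and 2 vitamin B2-deficient (B2_minus) libraries each, and H3K27ac ChIP from 5 and 5. A further H3K27ac experiment had 2 Cont_DMSO, 2 B2_minus_DMSO and 2 B2_minus_AhRinh libraries, the last with an AhR inhibitor. Input DNA made up 6 more HepG2 libraries. No group was kept at low oxygen according to the labels, and HIF binding was not among the assays. Of the 2 H3K27ac lists, the untreated list is the one named for H3K27ac without an inhibitor, an experiment with both Cont and B2_minus libraries. The inhibitor list is the one named for the AhR inhibitor experiment, which also holds the DMSO libraries. Neither list is divided by group, so untreated is not to be read as control cells, nor the inhibitor list as inhibitor-treated cells alone.

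The lists give positions and no value for any library. The depth behind a peak is therefore unknown, and no difference between B2-deficient and control cells, or between inhibitor and vehicle, was measured at these genes. Counts below describe the lists, with the same count over all genes or all peaks as the background, and no test was made. Peaks near 1 gene are neighbours and are not independent. In HepG2 the untreated H3K27ac list held 10 to 61 regions at each of 8 hepatocyte marker genes, with a median rank above 98.8% of genes of like length. The 8 markers of leukocytes, endothelium and fibroblasts held 1 to 41, with a median rank of 56.0%, and the 41 were at PECAM1.

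The aryl hydrocarbon receptor (AhR) is a ligand-activated transcription factor that binds DNA as a dimer with ARNT. The hypoxia-inducible factors use the same partner: HIF-1α, encoded by HIF1A, and HIF-2α, encoded by EPAS1, are hydroxylated and degraded when oxygen is ample and pair with ARNT when it is scarce. The DNA cores of both dimers are closely related, GCGTG for AhR with ARNT and ACGTG or GCGTG for a HIF with ARNT. C/EBPα is a liver transcription factor, and H3K27ac, acetylation of lysine 27 of histone H3, is common at active enhancers and promoters. Among the roles of these genes in the response to low oxygen are glucose transport, blood vessel growth, acid balance and mitochondrial turnover.

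All 10 genes had at least 1 AhR peak within 50 kb, where 85.4% of protein-coding genes had one, so the presence of a peak does not set these genes apart. All 10 also had a C/EBPα peak (88.6% of genes) and at least 1 region in the untreated and in the inhibitor H3K27ac list (90.4% and 88.1% of genes). The numbers of peaks differed widely. AhR peaks ran from 3 at BNIP3 to 22 at EPAS1, 90 in all, with a median of 8.5 per gene against 4 over all genes. C/EBPα peaks ran from 3 at BNIP3 and ANKRD37 to 28 at EPAS1, 97 in all, with a median of 7.5 against 4. Untreated H3K27ac regions ran from 3 at HIF1A and ANKRD37 to 81 at NDRG1, 292 in all, with a median of 19.5 against 7. In the plot of counts by gene, EPAS1, VEGFA and NDRG1 stand above the other 7 genes in H3K27ac regions, and EPAS1 also in both factors.

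**Figure D1:**
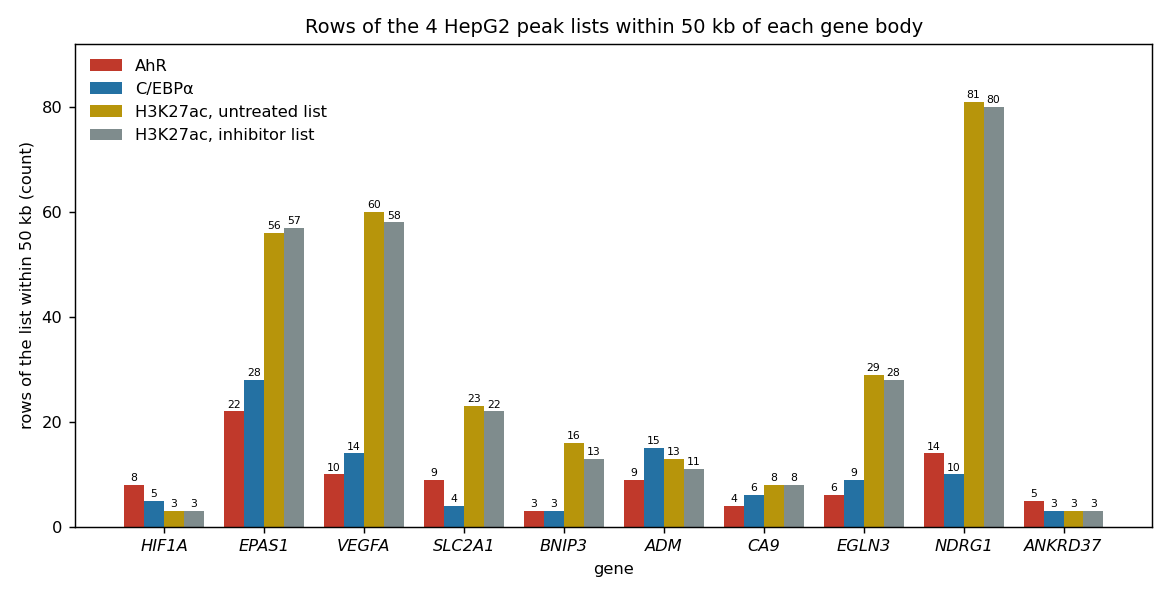
Number of rows of each HepG2 list (bars, 1 per list) within 50 kb of each gene body, as counts with no error since a list has no replicates. NDRG1 has the most untreated H3K27ac regions (81) and EPAS1 the most AhR peaks (22), while HIF1A has more AhR peaks (8) than H3K27ac regions (3).

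Long genes have wider windows, so each gene was also ranked within its class of gene length, 1 of 10 equal classes. By AhR peaks EPAS1 stood above 98.9% of its class, NDRG1 above 95.3%, ADM above 93.8%, VEGFA above 91.8% and SLC2A1 above 87.2%. HIF1A, ANKRD37, EGLN3 and CA9 followed at 74.0%, 69.4%, 68.7% and 56.1%. BNIP3 was the lowest, at 40.8%. These shares count only genes with fewer rows, so ties lower them. The 3 AhR peaks of BNIP3 equal the median of its class, as do the 4 C/EBPα peaks of SLC2A1. The lists did not rank the genes alike. HIF1A was above 74.0% of its class by AhR peaks but above 18% by untreated H3K27ac regions, and SLC2A1 was above 87.2% by AhR peaks but above 43.2% by C/EBPα peaks. The other way round, BNIP3 was above 83.6% by H3K27ac regions and 33.4% by C/EBPα peaks.

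**Figure D2:**
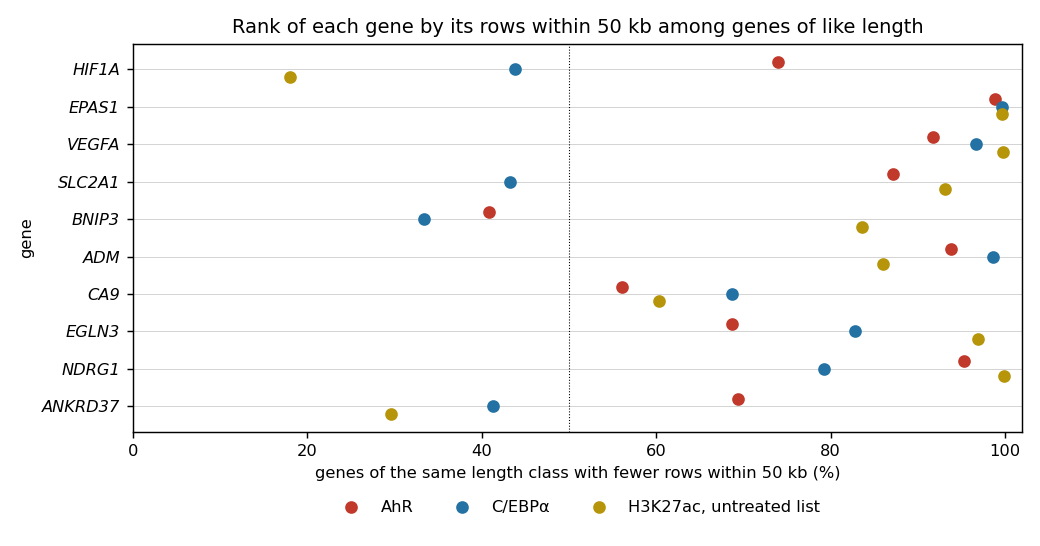
Share of genes in the same length class with fewer rows within 50 kb (x axis, percent) for each gene (y axis). Each list has 1 point, genes with equal counts are not counted as fewer, and the dotted line is at 50%. EPAS1 lies at 98.9% or above in all 3 lists, and HIF1A spreads from 18% for H3K27ac to 74.0% for AhR.

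Of the 90 AhR peaks, 48 overlapped a C/EBPα peak by at least 1 bp (53.3%, 95% Wilson interval 43.1 to 63.3), against 55.3% of the whole AhR list. An untreated H3K27ac region was overlapped by 67 (74.4%, 64.6 to 82.3), against 70.7%. Both partners were present at 41 (45.6%, against 41.1%) and neither at 16 (17.8%, against 15.1%). These shares lie near those of the list, and the intervals cover counting error only. Where AhR and C/EBPα peaks overlapped, their centres were a median of 24.8 bp apart (range 2.5 to 111 bp), and AhR and H3K27ac centres a median of 32 bp (0 to 133 bp). A gene body was touched by 30 of the AhR peaks, at 6 of the 10 genes, against 47.0% of all genes. C/EBPα peaks touched 7 bodies (51.4% of genes), and so did untreated and inhibitor H3K27ac regions (51.8% and 49.8%). Within 10 kb, 9 of the 10 had an AhR peak (64.6% of genes), 8 a C/EBPα peak (70.8%), and all 10 a region of the untreated and of the inhibitor list (72.9% and 70.0%). The member was the nearest protein-coding gene for 76 of the 90. The AhR peak farthest inside the 50 kb limit lay 49962 bp from SLC2A1, and the closest one left out lay 51872 bp from NDRG1.

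**Figure D3:**
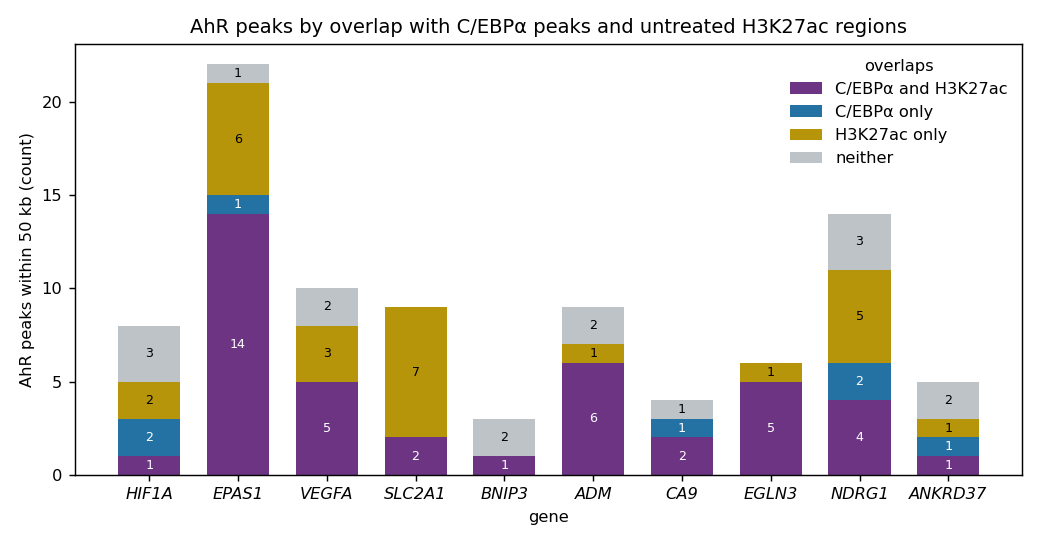
AhR peaks within 50 kb of each gene (bar height, count), split by what each peak overlaps by at least 1 bp. At EPAS1 14 of 22 peaks carry both C/EBPα and H3K27ac, at SLC2A1 7 of 9 carry H3K27ac only, and BNIP3 has 2 of 3 with neither.

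The promoters show where the AhR and HIF cores lie, and ANKRD37 is described first, since of the 8 members with a promoter window it is the one with an AhR peak in it. ANKRD37 encodes an ankyrin repeat protein that is a direct target of HIF-1. RefSeq promoter windows (GRCh38.p14, 250 bases before to 50 after the transcription start) were matched for 8 of the 10 genes, all but VEGFA and NDRG1. An AhR peak overlapped the window of ANKRD37 and of none of the other 7, where 6.28% of all 35116 windows had one and 7.01% of those of protein-coding genes. This AhR peak, chr4:185396572-185396794, had a merge number of 1, the number that ends its name, read here as the count of peaks merged into the entry. Its centre lay 158 bp before the start site, and neither a C/EBPα peak nor any H3K27ac region overlapped it. The 250 bases before the start at chr4:185396591-185396840, plus strand, are shown for the position of the cores under this peak, with ACGTG on either strand in capitals.
ANKRD37: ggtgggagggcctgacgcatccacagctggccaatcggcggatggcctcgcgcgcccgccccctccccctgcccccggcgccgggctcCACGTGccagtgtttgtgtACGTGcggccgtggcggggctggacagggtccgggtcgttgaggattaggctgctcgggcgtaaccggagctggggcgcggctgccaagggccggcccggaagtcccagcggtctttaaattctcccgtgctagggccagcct
The first run of capitals is a palindrome, so ACGTG is read there on both strands, and the 2 readings lie 1 and 2 bp from the centre of the AhR peak. The second lies 17 bp from the centre. GCGTG, the AhR core, was not in this window on either strand, and 204 of the 223 bp of the peak fell inside it. The letters are a description and show no binding of either dimer.

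BNIP3 and CA9 are shown beside it because their windows hold the same HIF-type core without an AhR peak. BNIP3 encodes a mitochondrial protein of mitophagy. The window of BNIP3 held GCGTG at 4 places, all on the strand opposite the gene, and ACGTG at 1 palindrome read on both strands. Its 250 bases before the start, at chr10:131981924-131982173, minus strand, follow with both cores in capitals on either strand.
BNIP3: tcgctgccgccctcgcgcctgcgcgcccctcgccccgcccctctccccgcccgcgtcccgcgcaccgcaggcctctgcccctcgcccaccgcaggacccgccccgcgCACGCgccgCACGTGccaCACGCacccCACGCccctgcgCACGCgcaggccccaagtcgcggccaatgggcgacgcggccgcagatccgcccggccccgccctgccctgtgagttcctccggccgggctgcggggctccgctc
The 5 places lay within the stretch from 143 to 100 bases before the start. The closest AhR peaks lay on both sides of the window, 1.09 kb inside the gene and 2.09 kb upstream of the start. CA9 encodes carbonic anhydrase IX, a cell-surface enzyme of acid balance whose promoter is a classical HIF-1 target. Its window, with bases at chr9:35673678-35673927, plus strand, held ACGTG once, on the opposite strand, 18 bases before the start, in capitals as read on the strand of the gene.
CA9: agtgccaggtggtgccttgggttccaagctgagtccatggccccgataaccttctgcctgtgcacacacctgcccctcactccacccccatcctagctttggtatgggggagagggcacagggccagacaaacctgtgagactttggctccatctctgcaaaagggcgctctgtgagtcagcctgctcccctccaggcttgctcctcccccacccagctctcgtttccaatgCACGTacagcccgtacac
The closest AhR peak to the CA9 start lay 4317.5 bp upstream.

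Over the 8 genes, GCGTG was found in the windows of HIF1A, EPAS1, SLC2A1, BNIP3 and ADM, 5 of 8, against 36.5% of all windows and 43.0% of those of protein-coding genes. At SLC2A1 it lay after the start. ACGTG was found at BNIP3, CA9 and ANKRD37, 3 of 8, against 21.4% of all windows and 23.1% of protein-coding ones. These are counts of genes beside shares of windows, and with 8 genes they do not set the members apart. At the first starts the GC content ran from 62.0% at CA9 to 80.7% at BNIP3. The median over protein-coding windows was 62.3%, and the part of GC content in these counts was not tested. The longer AhR-type element TNGCGTG was in none of the member windows and in 5.51% of all windows. Of all windows with an AhR peak, 46.1% held GCGTG, 25.4% ACGTG and 10.4% TNGCGTG, and of those without one 35.9%, 21.1% and 5.18%. The median GC content was 61.3% with an AhR peak and 58.3% without, and its part in these shares was not tested. EGLN3 had neither core. A second, inner start of HIF1A had neither core in its window, whose GC content was 31.7%, against 73.0% at the first start.

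**Figure D4:**
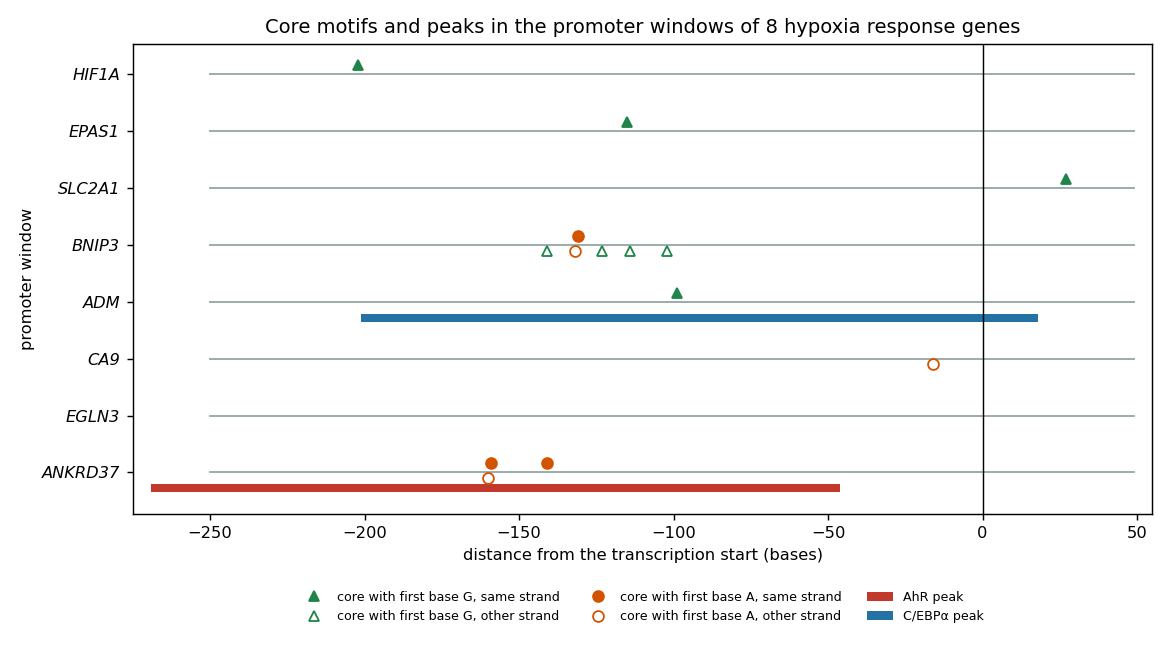
Positions of the GCGTG core (first base G, triangles) and the ACGTG core (first base A, circles) relative to the transcription start (x axis, bases) in 8 promoter windows, filled on the gene's strand and open on the other, with peaks that overlap a window as bars. The AhR peak of ANKRD37 spans 269 to 47 bases before the start and covers all its ACGTG readings, and no other window has an AhR bar.

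ADM encodes adrenomedullin, a peptide that widens blood vessels. Its promoter had no AhR peak but a C/EBPα peak, chr11:10304872-10305090 with a merge number of 1, whose centre lay 92 bp before the start. A C/EBPα peak overlapped 8.4% of all windows and 9.98% of those of protein-coding genes. The neighbouring gene SBF2 starts in the opposite direction at 10304841, so the same peak reaches into the promoter window of both genes. The bases before the ADM start, at chr11:10304823-10305072, plus strand, are shown with GCAAT, 1 arm of the palindromic C/EBP site, in capitals.
ADM: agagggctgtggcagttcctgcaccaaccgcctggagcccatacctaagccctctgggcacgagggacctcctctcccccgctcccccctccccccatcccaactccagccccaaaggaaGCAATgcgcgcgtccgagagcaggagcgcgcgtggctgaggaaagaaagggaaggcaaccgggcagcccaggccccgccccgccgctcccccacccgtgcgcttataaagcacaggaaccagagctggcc
GCAAT lay 36 bp from the centre of the C/EBPα peak. It was in 24.5% of all windows and in 33.6% of those with a C/EBPα peak. This motif was chosen after the ADM sequence had been seen.

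The factors themselves differed. EPAS1 (gene ID 2034, chromosome 2, 46297407 to 46386697) had 22 AhR peaks, 28 C/EBPα peaks and 56 untreated H3K27ac regions, and no other protein-coding gene lay within 50 kb. Of its AhR peaks, 14 touched the gene body and 11 had a merge number of 2. An H3K27ac region was overlapped by 20 of the 22 and a C/EBPα peak by 15, against 70.7% and 55.3% of the AhR list. All 22 lay beyond 3 kb of a gene end, where 77.5% of the list overlapped H3K27ac. The AhR peak closest to the start, at 46300628 to 46300861, lay 3.34 kb inside the gene and overlapped both. The 2 peaks without H3K27ac lay next to each other beyond the higher gene end, at 46393878 to 46394098 and 46394841 to 46395066. A C/EBPα peak without an AhR peak lay 374 bp upstream of the start. C/EBPα peaks at EPAS1 overlapped AhR peaks in 15 of 28 cases, against 50.1% of the C/EBPα list.

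HIF1A (gene ID 3091, chromosome 14, 61695513 to 61748258) had 8 AhR peaks, 5 C/EBPα peaks and 3 H3K27ac regions. Of the AhR peaks 6 lay in the gene body, between 10.4 and 21.6 kb downstream of the start. An H3K27ac region was overlapped by 3 of the 8, where 70.7% of the AhR list did so. Beyond 3 kb of a gene end lay 7 of the 8, of which 3 overlapped H3K27ac, against 77.5% over the list. All 3 H3K27ac regions at HIF1A overlapped an AhR peak. The AhR peak at 61715050 to 61715261 overlapped both partners, and those at 61706271 to 61706519 and 61716958 to 61717229 overlapped a C/EBPα peak without H3K27ac. These 3 were also the merged ones, and the other 5 had a merge number of 1. EPAS1 and HIF1A thus had AhR peaks inside the gene and none within 3 kb of the start, with H3K27ac at 20 of 22 peaks of EPAS1 and 3 of 8 of HIF1A.

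EGLN3 (gene ID 112399, chromosome 14, 33924227 to 33951074) encodes a prolyl hydroxylase that marks HIF-α for degradation and is itself induced by HIF. It had 6 AhR peaks, 9 C/EBPα peaks and 29 H3K27ac regions. No AhR peak lay within 10 kb of the gene, which alone among the 10 had none there. The 6 formed a group of 3 beyond the lower end, 14.5 to 24.2 kb from the body, and a group of 3 upstream of the start, 28.5 to 39.8 kb from it. Every one of the 6 overlapped an untreated H3K27ac region and 5 overlapped a C/EBPα peak. Over the AhR list, 77.5% of peaks beyond 3 kb of gene ends overlapped an untreated H3K27ac region. A C/EBPα peak was overlapped by 55.3% of all AhR peaks. With 6 peaks, the counts at EGLN3 do not set it apart from these shares, and its sites were distant from the gene.

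Among secreted factors, VEGFA (gene ID 7422, chromosome 6, 43770211 to 43786487), the main growth factor of blood vessels, had 10 AhR peaks, 14 C/EBPα peaks and 60 H3K27ac regions. Its H3K27ac count stood above 99.8% of genes of like length. The 2 AhR peaks in the gene body, at 43771566 to 43771821 and 43772741 to 43772997, overlapped neither partner. A cluster of 6 AhR peaks lay 12.4 to 26.7 kb beyond the higher end, all 6 on H3K27ac regions and 4 of them on C/EBPα peaks. Over the AhR list, 77.5% of peaks beyond 3 kb of gene ends lay on H3K27ac, and 55.3% of all peaks on C/EBPα. The AhR peak at 43766946 to 43767188, 3.02 kb from the lower end, was merged and overlapped both. AhR peaks overlapped 8 of the 60 H3K27ac regions, 13.3%, against 37.8% of the whole H3K27ac list. With 10 AhR peaks for 60 regions this share is limited by the counts, and 8 of the 10 AhR peaks lay on H3K27ac.

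ADM (gene ID 133, chromosome 11, 10305073 to 10307397) had 9 AhR peaks, 15 C/EBPα peaks and 13 H3K27ac regions. No AhR peak touched the gene body, and the closest lay 0.634 kb beyond its end, at 10308031 to 10308330, with neither partner. The 3 peaks on the lower side, 15.9 to 22.7 kb away, lay in the body of SBF2, were all merged and overlapped both partners. On the higher side, those at 10323021 to 10323254 and 10326498 to 10326751 were also merged and overlapped both. The peak at 10351841 to 10352049, with a merge number of 1, overlapped both too. Both partners were thus present at 6 of the 9, against 41.1% of the AhR list. ADM is short, and its 9 AhR peaks stood above 93.8% and its 15 C/EBPα peaks above 98.6% of genes of like length.

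SLC2A1 (gene ID 6513, chromosome 1, 42925353 to 42958868) encodes the glucose transporter GLUT1. It had 9 AhR peaks, 4 C/EBPα peaks and 23 H3K27ac regions. All 9 AhR peaks overlapped an untreated H3K27ac region, while 2 overlapped a C/EBPα peak, against 70.7% and 55.3% of the AhR list. Of the 9, 8 lay beyond 3 kb of a gene end, where 77.5% of the list overlapped H3K27ac. Those 2, at 42939247 to 42939500 inside the gene and at 42980467 to 42980700 upstream, were also the merged ones, and the other 7 had a merge number of 1. The other AhR peaks upstream lay from 8.29 to 50.0 kb from the gene body. SLC2A1 thus had the lowest share of AhR peaks with C/EBPα among the 10 genes, 22.2%, and with EGLN3 the highest share with H3K27ac. These shares rest on 9 neighbouring peaks at SLC2A1 and 6 at EGLN3. Beyond 3 kb of gene ends, every AhR peak of VEGFA, ADM, CA9, BNIP3 and ANKRD37 overlapped H3K27ac too.

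CA9 (gene ID 768, chromosome 9, 35673928 to 35681159) had 4 AhR peaks, 6 C/EBPα peaks and 8 H3K27ac regions in a window shared with 6 other protein-coding genes. CA9 was the nearest gene for 1 of these AhR peaks, at 35669479 to 35669742, which was merged, overlapped both partners and lay 4.19 kb from the gene body. The other 3 lay nearer to SIT1, CCDC107 and TLN1. Of those, the peak at TLN1 overlapped both partners, the peak at SIT1 a C/EBPα peak, and the peak at CCDC107 neither.

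BNIP3 (gene ID 664, chromosome 10, 131967684 to 131981923) had 3 AhR peaks, 3 C/EBPα peaks and 16 H3K27ac regions. All 3 AhR peaks had a merge number of 1. The peaks at 131980713 to 131980949 and 131983895 to 131984140, on either side of the start, overlapped neither partner. The third, at 131997791 to 131998031, 15.9 kb upstream of the gene, overlapped both, and all 3 C/EBPα peaks lay at that distance or beyond.

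NDRG1 (gene ID 10397, chromosome 8, 133237175 to 133297252), a stress-induced gene raised by hypoxia in many cell types, had 14 AhR peaks, 10 C/EBPα peaks and 81 H3K27ac regions. Its gene body of 60.1 kb was touched by 61 H3K27ac regions, 1.02 per kb, and they covered 40.8% of it. This density stood above 99.9% of genes of like length. VEGFA, EPAS1 and SLC2A1 followed with 0.491, 0.381 and 0.269 regions per kb, and ADM, CA9 and ANKRD37 had none in the body. The AhR peaks of NDRG1 crowded near the higher gene end, where 5 lay between 133292865 and 133297505. The outermost, at 133297233 to 133297505, spans that end of the gene body, with its centre 117 bp from the end, and overlapped a C/EBPα peak without H3K27ac. Of those 5, an H3K27ac region was overlapped by 1 and a C/EBPα peak by 3. A C/EBPα peak was overlapped by 55.3% of the whole AhR list. Over the AhR list, the share on H3K27ac was 29.2% within 3 kb of a gene end and 77.5% beyond. NDRG1 had no promoter window here, so which end holds its start was not read, and this end may be a promoter. AhR peaks overlapped 9 of the 81 H3K27ac regions, 11.1%, against 37.8% of the H3K27ac list. With 14 AhR peaks for 81 regions this share is limited by the counts, and 9 of the 14 AhR peaks lay on H3K27ac. Single regions made up 44 of its 81.

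ANKRD37 (gene ID 353322, chromosome 4, 185396841 to 185400723) had 5 AhR peaks, 3 C/EBPα peaks and 3 H3K27ac regions in a window shared with 5 other protein-coding genes. Besides the promoter peak, the AhR peaks lay 13.8 to 37.4 kb from the gene on its lower side. The peak at 185382813 to 185383027 was merged and overlapped both partners. By gene bodies ANKRD37 was the nearest gene for none of the 5, since LRP2BP (185363872 to 185397287) reaches across its start and holds the promoter peak too.

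**Figure D5:**
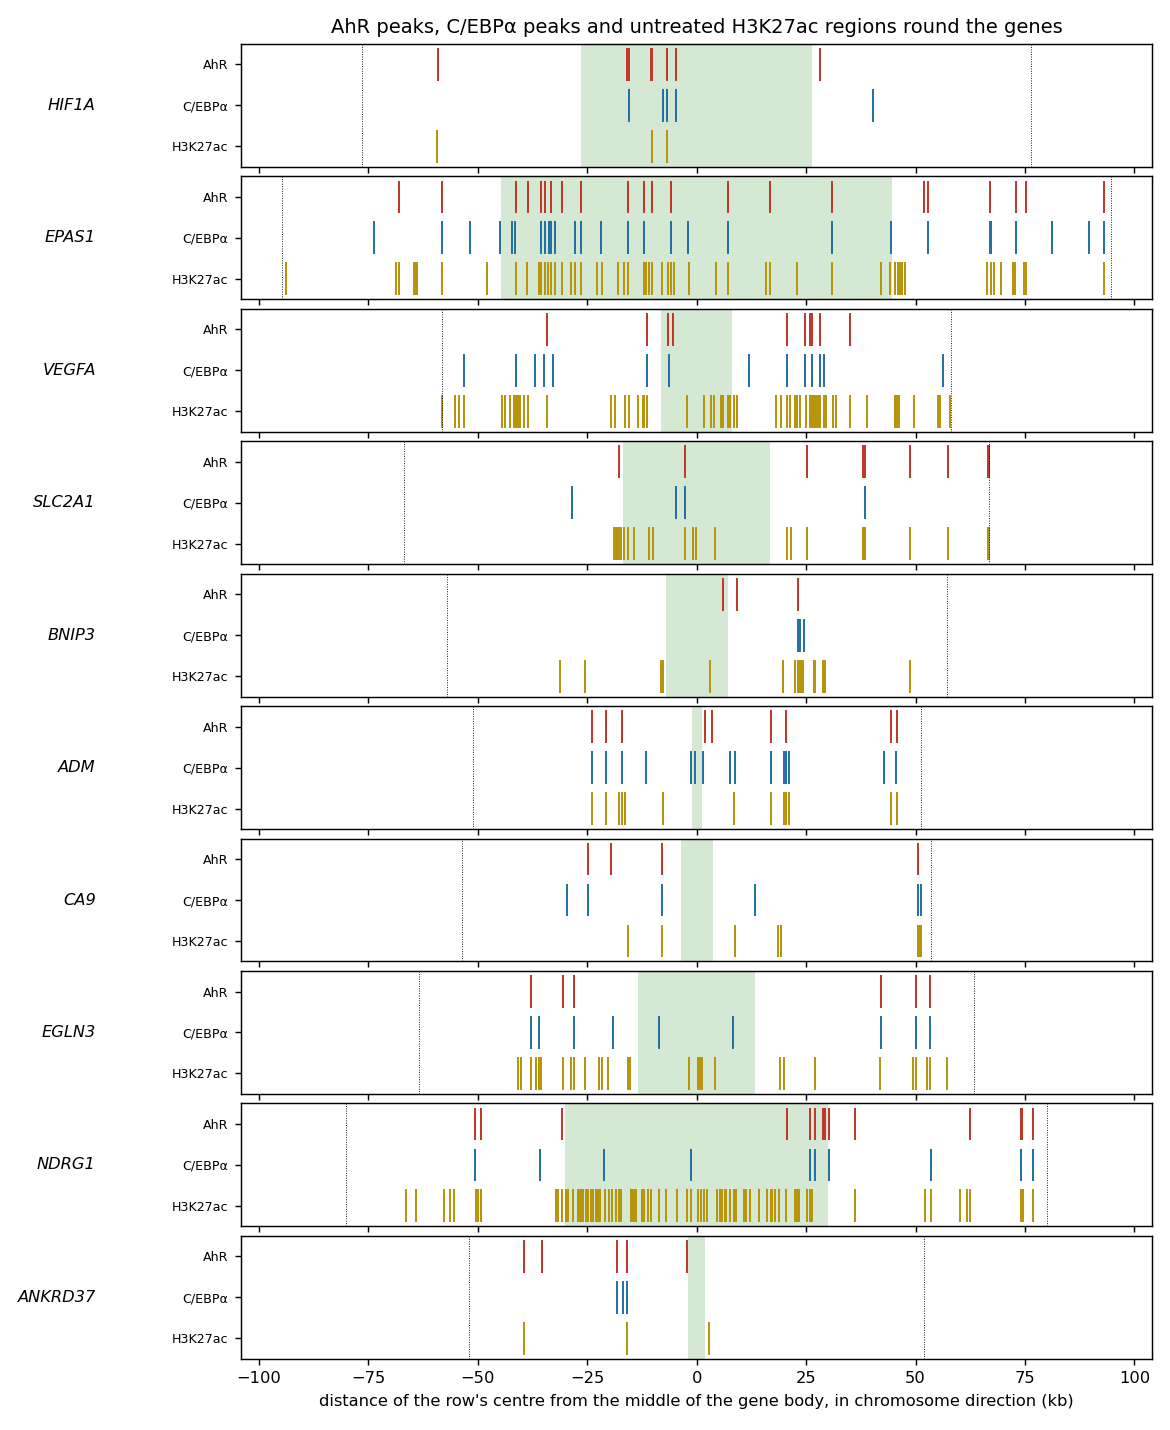
Centres of AhR peaks, C/EBPα peaks and untreated H3K27ac regions (vertical lines) by distance from the middle of each gene body (x axis, kb, chromosome direction), with the gene body shaded and the 50 kb limits dotted. NDRG1 shows 61 H3K27ac regions inside its body, VEGFA a cluster of 6 AhR peaks to its right, and EGLN3 no AhR peak inside or within 10 kb.

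The lack of H3K27ac at AhR peaks near starts cannot be read as a lack of acetylation, since both H3K27ac lists are thin there. Over the genome the untreated list held 1190 regions within 3 kb of a protein-coding start and 7748 from 3 to 6 kb, while the AhR list held 5389 and 3161. From 2500 to 3000 bp the untreated list had 226 regions and from 3000 to 3500 bp 1463, against 626 and 597 AhR peaks. Of AhR peaks within 3 kb of such a start, 5.72% overlapped an untreated H3K27ac region, and of the others 77.5%. Among the 8 members with a placed start, none had an H3K27ac region of either list within 3 kb of its first start. The nearest untreated regions lay 3148.5 bp away at EPAS1, 3958.5 bp at SLC2A1 and 4000 bp at BNIP3. AhR peaks lay within 3 kb of the start at BNIP3 (2 peaks) and ANKRD37 (1 peak), and C/EBPα peaks at ADM (3) and EPAS1 (2). The share of all genes with a row of each list within 3 kb of the start was not computed. These counts of genes therefore have no background and do not set the members apart.

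Measured from either end of a protein-coding gene, 17 of the 90 AhR peaks lay within 3 kb, and 2 of these 17 overlapped an H3K27ac region (29.2% over the list). Of the 73 farther out, 65 did (77.5% over the list). The 8 distant AhR peaks without H3K27ac were 4 at HIF1A, 2 at EPAS1 and 2 at NDRG1. At the other 7 genes every AhR peak beyond 3 kb of a gene end overlapped an untreated H3K27ac region. What made the step in the H3K27ac lists was not tested.

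Of the 292 untreated H3K27ac regions at the 10 genes, 282 had identical coordinates in the inhibitor list (96.6%, 95% Wilson interval 93.8 to 98.1), against 87.4% of the whole untreated list. The inhibitor list held 283 regions there, of which 282 were in the untreated list (95.9% over the whole inhibitor list), and its 1 region without a counterpart lay at EPAS1, at 46276737 to 46277013. The 10 untreated regions without a counterpart were 3 at BNIP3, 2 each at VEGFA and ADM, and 1 each at SLC2A1, EGLN3 and NDRG1. An AhR peak lay on 3 of these 10, at ADM (region 10350457 to 10350722), at EGLN3 (33990932 to 33991185) and at SLC2A1 (42999378 to 42999636). All 3 lay more than 39 kb from the gene body. HIF1A, EPAS1, CA9 and ANKRD37 kept every untreated region. The genes did not all lie above the 87.4% of the list, since BNIP3 (81.2% of 16) and ADM (84.6% of 13) lay below it. NDRG1 (98.8% of 81), VEGFA (96.7% of 60) and EPAS1 (100% of 56) held most of the regions. The interval covers counting error only and treats neighbouring regions as independent, so it does not set the 10 genes apart from the list. The sources used here do not say which libraries entered each list, so these differences do not compare inhibitor with vehicle.

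Rows merged from 2 or more peaks made up 36.7% of the AhR peaks at the 10 genes, against 42.3% of the list, and 57.7% of the C/EBPα peaks, against 59.6%. For H3K27ac the pooled share was 64.0% against 78.2% untreated and 64.7% against 79.8% in the inhibitor list. The genes did not share this difference. In the untreated list NDRG1 (45.7%), SLC2A1 (60.9%), VEGFA (61.7%) and EPAS1 (66.1%) lay below the share of the list, and these 4 held most of the regions. The other 6 lay above it, from 82.8% at EGLN3 to 100% at HIF1A and ANKRD37. Among AhR peaks merged ones ran from 0 of 3 at BNIP3 to 5 of 9 at ADM. All 4 C/EBPα peaks of SLC2A1 were merged.

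Other genes of the pathway were read in the same way. All 5 dimer partners and related PAS subunits had an AhR peak within 50 kb, against 85.4% of genes. NPAS2 had 21 and ARNT2 8, while ARNT, the partner shared by AhR and the HIF factors, had 6 AhR peaks, 11 C/EBPα peaks and 3 H3K27ac regions. All 8 genes of oxygen sensing and HIF-α regulation had an AhR peak, with a median of 4.5. EGLN1 had the most (7), then EGLN2, ELOC and CITED2 with 5 each. HIF1AN, the asparaginyl hydroxylase of HIF-α, had 1 AhR peak and no C/EBPα peak. All 17 glycolysis and glucose genes had one, with a median of 6, led by ENO1, an enolase, with 15 and SLC16A3, a lactate exporter, with 14. Of 23 further HIF targets 22 had one, with a median of 8, led by TF, transferrin, with 22 and DDIT4, an inhibitor of mTORC1, with 17. P4HA2, a collagen prolyl hydroxylase, had neither an AhR nor a C/EBPα peak but 7 untreated H3K27ac regions. For comparison, the 7 genes of the AhR pathway had a median of 7 AhR peaks, led by NQO1 with 11, then CYP1A2 and TIPARP with 8 each, and 8 untreated H3K27ac regions against 19.5 at the 10 hypoxia genes. Windows of neighbouring genes overlap, so some peaks count for more than 1 gene.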

How the data were processed

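ChIP-seq of AhR, C/EBPα and H3K27ac in HepG2 was used through 4 lists of merged peaks. The authors deposited positions only: a name, chromosome, start, end and strand sign per row, with no count, score or value per library. Bowtie2, HOMER and the builds hg38 and mm10 are named per the submitters' processing notes. The sources used here give no caller settings, filters or versions, nor which peak sets were merged. The 2 mouse lists were not used here. Rows were taken within 50 kb of RefSeq gene bodies, and intervals sharing 1 bp overlapped. Positions are as deposited, so a distance to a motif is good to about 1 bp. Gene bodies come without exons, so exon and intron are not given. RefSeq promoter windows gave starts and sequences. The planned case of counts per library did not arise, so no test was made. Motifs were searched on both strands. The routines were tested on simulated data. The members, lists and comparisons were chosen with earlier results of these data known. All 10 members are named, and of each pathway group the 2 genes with the most AhR peaks and any with none. ARNT, HIF1AN and the ties at 5 peaks were named after their values were seen. Tables were computed in Python 3.11.15 (SciPy 1.17.1, pandas 2.3.3, NumPy 2.4.6), and Matplotlib 3.10.9 drew the figures.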

Additional observations from a re-analysis of the deposited data

How the results depend on the processing

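No paired analysis was possible because the lists hold no value per library, and leaving out a replicate was not possible for the same reason. Of 38 alternatives, 21 kept a value within 1.5 times of a count or within the counting interval of a share, and 17 did not. A narrower window or fewer rows can only lower a count. With a 10 kb window the 10 genes had 43 AhR peaks, 45 C/EBPα peaks and 161 untreated and 160 inhibitor H3K27ac regions. With 100 kb these were 141, 172, 447 and 429, and with merged rows only 33, 56, 187 and 183. The share of AhR peaks on H3K27ac was 55.8% in the 10 kb window, 90.9% with merged rows and 89.0% beyond 3 kb of gene ends, the last chosen after seeing the data. The share on C/EBPα was 75.8% with merged rows. In the 10 kb window 99.4% of untreated H3K27ac regions had a counterpart in the inhibitor list. For these shares the cause was not tested. Beyond 3 kb of gene ends the share on H3K27ac over the whole AhR list was 77.5%. Shares over the whole lists were not computed for merged rows or a 10 kb window, so those values have no like background. Without EPAS1, also chosen after seeing the data, the shares of AhR peaks on H3K27ac and on C/EBPα were 69.1% and 48.5%. Depth is unknown, so a gene without a peak may lie under the detection limit.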

Other observations

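AhR peaks lay on 22.9% of the untreated H3K27ac regions at the 10 genes, against 37.8% over the list. This share depends on the numbers of rows, 90 AhR peaks for 292 regions at the genes and 56739 for 106666 over the lists. The share was 100% of 3 regions at HIF1A, 66.7% of 3 at ANKRD37, 53.8% of 13 at ADM and 39.1% of 23 at SLC2A1. It was 35.7% of 56 at EPAS1, 25.0% of 8 at CA9 and 20.7% of 29 at EGLN3. VEGFA (13.3% of 60), NDRG1 (11.1% of 81) and BNIP3 (6.25% of 16) were lowest, and VEGFA and NDRG1 together hold much of the pooled count.

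No other protein-coding gene had the same counts in all 4 lists as HIF1A, EPAS1, VEGFA, SLC2A1, BNIP3, EGLN3 or NDRG1, while 1 matched ADM, 5 matched CA9 and 3 matched ANKRD37.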
